A study of Homo sapiens with 6 samples.

Results

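The genes described here are 10 epithelial serine protease and inhibitor genes of the 60664 genes in the deposited count table, found there by their symbols. They are the kallikrein-related peptidases KLK5, KLK6, KLK7, KLK10 and KLK11, the membrane proteases ST14 (matriptase) and PRSS8 (prostasin), and the inhibitors SPINT1, SPINT2 and SLPI. The set was selected on the difference in CPM (counts scaled to a common library size) between the groups compared here, so the members' differences are given as a description, without p-values. RNA was measured in 3 libraries of HCT8 cells given a plasmid for KDM4A overexpression (genotype label KDM4A-overexpressing) and in 3 libraries of HCT8 cells given a control plasmid (genotype label WT). HCT8 is an established human colorectal cancer line, and KDM4A is a demethylase of histone H3. All 6 libraries carry batch number 1. The labels name neither the plasmid's promoter nor the time after transfection, and they do not say that replicate libraries are separate cultures. P-values therefore measure only the spread between these libraries, which may be technical.

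Kallikreins are secreted trypsin-like or chymotrypsin-like serine proteases that are made as inactive precursors and activate each other by cleavage. Matriptase and prostasin sit on the surface of epithelial cells and also activate each other, and together they process growth factor precursors, junction proteins and the epithelial sodium channel. SPINT1 and SPINT2 (also called HAI-1 and HAI-2) are membrane proteins with Kunitz domains that hold matriptase and prostasin in check, and loss of SPINT2 causes a congenital sodium diarrhea in humans. SLPI is a secreted inhibitor with WAP domains that acts on neutrophil elastase.

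The libraries held 17737307, 23905980 and 14284240 counts with the KDM4A plasmid and 18380500, 19774634 and 22990881 counts with the control plasmid. KDM4A stood at 152, 157 and 160 CPM with its plasmid and at 42.8, 45.8 and 45.2 CPM with the control plasmid (log2 fold change 1.81, standard error (SE) 0.06, adjusted p = 7.2e-15, edgeR). Most genes differed between the groups, since 78.6% of the 17147 genes tested passed at an adjusted p under 0.05, 40.0% as higher and 38.6% as lower with the KDM4A plasmid, and the median log2 fold change of all tested genes was 0.03. The markers of colon epithelium went against the label of the control libraries. The 12 markers on that list summed to 3449 to 3703 CPM in the KDM4A plasmid libraries and to 255 to 271 CPM with the control plasmid. EPCAM, an epithelial adhesion protein, averaged 330 ± 17.7 and 18.7 ± 0.990 CPM there (SD, n = 3 each). All 9 colon markers that were tested rose, and KRT20, CEACAM5 and MUC2 had too few counts for a test. The 8 genes of a list for embryonic kidney cell lines summed to 461 to 485 CPM and to 2350 to 2749 CPM in the same groups, mostly from IRS4, an insulin receptor substrate gene, at 323 ± 7.89 and 2148 ± 201 CPM. Of those 8 genes, 7 fell and PAX8 rose. The 10 squamous epithelium markers summed to 22.0 to 28.8 CPM and to 5.67 to 8.11 CPM, nearly all of it KRT10, with IVL, LORICRIN and SPRR1A at 0 counts in all 6 libraries. The fibroblast list summed to 13.4 to 16.1 and to 19.8 to 21.4 CPM, the leukocyte list to 4.23 to 4.65 and to 1.93 to 3.60 CPM, and the endothelial list to 0.973 to 1.10 and to 0.395 to 0.580 CPM. These differences accompany every value below. Their part in it was not tested, and fewer cells of a type cannot be told apart from less RNA per cell. The cell line of each group is known from the labels alone, and the identity of the control cells was not tested. In this text, rose and fell mean higher and lower with the KDM4A plasmid than with the control plasmid.

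The annotated upstream sequences of the members are given for comparison between neighbouring kallikreins and SPINT1. The RefSeq windows on GRCh38.p14 run from 250 bases before to 50 bases after a transcript start, and 11 windows matched 6 of the 10 members (KLK5, KLK6, KLK7, KLK10, KLK11 and SPINT1). ST14, PRSS8, SPINT2 and SLPI had no entry. The 4 windows below were chosen for the kallikreins with the largest difference (KLK6 and KLK10), the kallikrein with the lowest level (KLK5) and the inhibitor with an entry (SPINT1). They are written 5′ to 3′ on the gene's own strand, with matches on either strand to the GC box GGGCGG, the AP-1 letters TGANTCA and the NF-kB letters (GGGA, NNNN and CC in a row) in capitals.
KLK6, chr19:50969542-50969841, minus strand: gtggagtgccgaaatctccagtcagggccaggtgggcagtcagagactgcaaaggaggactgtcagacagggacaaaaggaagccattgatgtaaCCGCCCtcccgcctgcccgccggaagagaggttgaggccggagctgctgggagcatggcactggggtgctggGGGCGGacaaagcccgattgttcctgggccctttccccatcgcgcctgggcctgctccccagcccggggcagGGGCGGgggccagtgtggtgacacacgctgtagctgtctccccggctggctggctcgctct
KLK10, chr19:51019660-51019959, minus strand: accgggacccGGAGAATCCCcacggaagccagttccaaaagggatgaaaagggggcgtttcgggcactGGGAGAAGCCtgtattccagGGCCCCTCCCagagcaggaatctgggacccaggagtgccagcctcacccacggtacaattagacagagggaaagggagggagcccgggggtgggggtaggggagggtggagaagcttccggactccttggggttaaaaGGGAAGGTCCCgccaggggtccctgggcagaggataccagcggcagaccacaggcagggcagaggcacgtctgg
KLK5, chr19:50952989-50953288, minus strand: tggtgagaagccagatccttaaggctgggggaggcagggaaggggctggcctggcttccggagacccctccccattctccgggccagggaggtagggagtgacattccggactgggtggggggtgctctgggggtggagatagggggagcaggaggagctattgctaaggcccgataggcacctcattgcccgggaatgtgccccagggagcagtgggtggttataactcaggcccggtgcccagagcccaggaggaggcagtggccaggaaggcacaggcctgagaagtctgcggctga
SPINT1, chr15:40843798-40844097, plus strand: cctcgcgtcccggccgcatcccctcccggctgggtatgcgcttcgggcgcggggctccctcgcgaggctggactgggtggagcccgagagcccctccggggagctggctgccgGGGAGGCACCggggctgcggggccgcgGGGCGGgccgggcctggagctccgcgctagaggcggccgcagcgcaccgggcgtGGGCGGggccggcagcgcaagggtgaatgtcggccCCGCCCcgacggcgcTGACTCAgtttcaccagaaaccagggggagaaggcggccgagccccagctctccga
The KLK6 window held 3 GC boxes and no NF-kB letters. The KLK10 window held no GC box and had NF-kB letters in several places, including overlapping matches on both strands. The KLK5 window held none of the 6 motifs searched. SPINT1 had 3 GC boxes, and its AP-1 match TGACTCA began 6 bases before the start. Over genes with at least 1 window, a GC box was present in 4 of 6 members and in 48.3% of all 27303 genes, and the NF-kB letters in 4 of 6 members and in 28.95% of all genes. The AP-1 letters were present in 1 of 6 members and in 9.37% of all genes, and the E-box CANNTG in 4 of 6 members and in 73.1%. The TATA box TATAAA and the GRHL letters AACNNGTT were in none of the 6, against 13.99% and 4.36% of all genes. The 6 members had 11 windows and the 27303 genes had 35114, so a member had more windows in which to match. Counted by window, the other kallikreins had a GC box in 7 of 13 and the NF-kB letters in 4 of 13. Matches of different motifs did not overlap in the members' windows. The windows of KLK7 and of KLK10 overlap within each gene, so their matches repeat, and such matches describe letters and are not binding sites.

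All 10 members were higher in the KDM4A plasmid libraries than in the control libraries, and in none of them did the values of the groups overlap. Among all tested genes, a set that leaves out KLK5 and KLK11, 40.4% were higher without overlap. Of the 10, 8 passed the low-count filter, and these 8 passed the test as higher, where 40.0% of all tested genes were called higher. Each of the 8 was at least 8-fold higher by its fitted change, as were 4.71% of all tested genes. Nothing is read from these counts, since the same comparison was used to propose the genes. KLK5 and KLK11 did not pass the filter and are given by their counts.

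**Figure D1:**
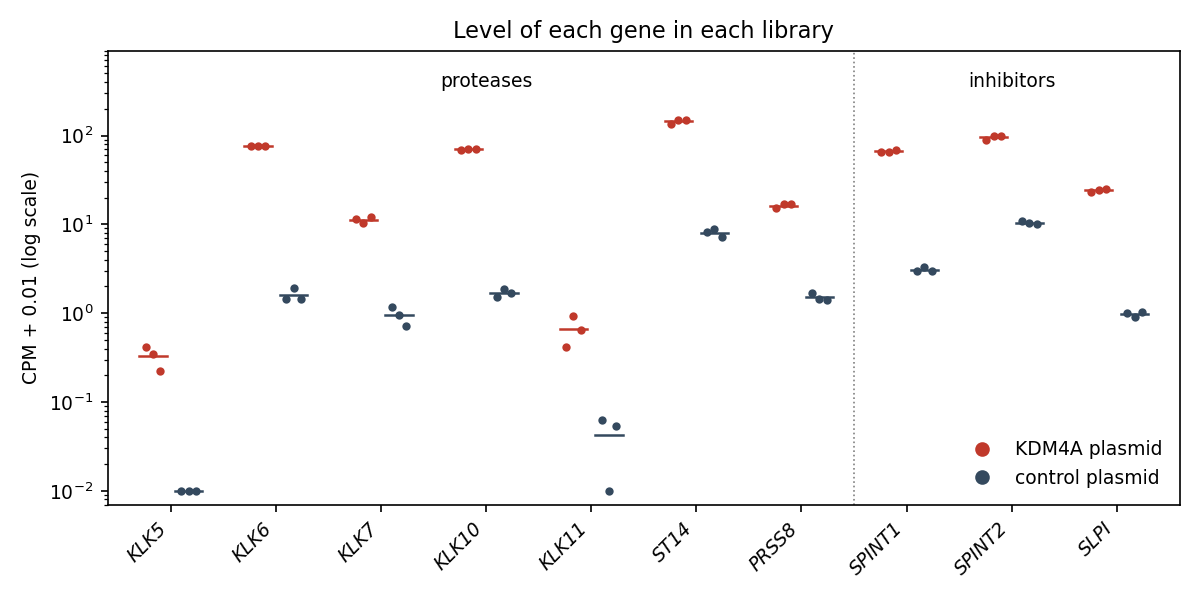
Level of each of the 10 genes in each library, in CPM plus 0.01 on a log axis. Points are single libraries (3 with the KDM4A plasmid in red, 3 with the control plasmid in dark blue) and bars are group means; the 3 zeros of KLK5 in controls sit at 0.01. For every gene the KDM4A plasmid libraries lie above the control libraries, from 0.319 against 0 CPM for KLK5 to 144 against 8.06 CPM for ST14.

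Among the kallikreins, KLK6 and KLK10 were the abundant ones with the KDM4A plasmid. KLK6 is a trypsin-like kallikrein that is abundant in brain and also made by carcinomas. It stood at 75.8, 75.7 and 76.5 CPM in the KDM4A plasmid libraries and at 1.42, 1.92 and 1.45 CPM in the control libraries. The log2 fold change was 5.57 (SE 0.10), the largest among the members. KLK10, a kallikrein first described in normal breast epithelial cells, stood at 68.4, 70.1 and 71.3 CPM with the KDM4A plasmid and at 1.53, 1.87 and 1.66 CPM with the control plasmid. Its log2 fold change was 5.36 (SE 0.09). For both genes the KDM4A plasmid libraries were nearly level with each other, and the control values rest on 27 to 39 counts per library.

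KLK7 and the low-count kallikreins KLK5 and KLK11 were higher at lower levels. KLK7, a chymotrypsin-like protease that cleaves the junctions between cells at the skin surface, stood at 11.4, 10.4 and 12.1 CPM in the KDM4A plasmid libraries and at 1.16, 0.937 and 0.701 CPM in the control libraries. Its log2 fold change was 3.60 (SE 0.16), smaller than those of KLK6 and KLK10. KLK5 (ENSG00000167754, chromosome 19, 50943303 to 50953093), a trypsin-like protease that activates KLK7 in skin, had 7, 8 and 3 counts with the KDM4A plasmid and 0 in every control library. Against a floor of 3 counts over the control group, or 0.0484 CPM, its observed counts were 6.76-fold higher. That value leaves out the counting error of the KDM4A plasmid libraries. KLK11, another trypsin-like kallikrein, had 7, 22 and 9 counts with the KDM4A plasmid and 1, 0 and 1 with the control plasmid. Its ratio over the pooled counts was 21.4, with a 95% exact binomial interval of 5.54 to 183 that covers counting error only.

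Both membrane proteases were higher. ST14 (ENSG00000149418, chromosome 11, 130159782 to 130210362, GRCh38.p13), the matriptase gene, stood at 135, 150 and 148 CPM in the KDM4A plasmid libraries and at 8.13, 8.83 and 7.23 CPM in the control libraries, with a log2 fold change of 4.16 (SE 0.08). PRSS8 (ENSG00000052344, chromosome 16, 31131433 to 31135727), the prostasin gene, whose product is anchored to the membrane by a lipid, stood at 15.2, 16.8 and 16.8 CPM and at 1.69, 1.43 and 1.40 CPM in the same groups. Its log2 fold change of 3.43 (SE 0.13) was the smallest among the tested proteases.

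The 3 inhibitors were higher too. SPINT1 (ENSG00000166145, chromosome 15, 40844018 to 40858207, GRCh38.p13) stood at 65.4, 64.6 and 68.9 CPM in the KDM4A plasmid libraries and at 2.95, 3.31 and 2.94 CPM in the control libraries, a log2 fold change of 4.43 (SE 0.08). SPINT2 (ENSG00000167642, chromosome 19, 38244035 to 38292615) stood at 90.1, 98.6 and 98.2 CPM with the KDM4A plasmid and at 10.8, 10.3 and 10.0 CPM with the control plasmid. Its log2 fold change of 3.21 (SE 0.07) was the smallest of the 8 tested members, and it was the only inhibitor above 10 CPM in every control library. SLPI (ENSG00000124107, chromosome 20, 45252239 to 45254564) stood at 23.2, 24.3 and 24.7 CPM with the KDM4A plasmid and at 1.00, 0.888 and 1.01 CPM with the control plasmid, a log2 fold change of 4.63 (SE 0.12). The fold changes of the proteases and the inhibitors thus covered overlapping ranges, with CPM ratios of 10.8 (PRSS8) to 47.6 (KLK6) over 5 tested proteases and of 9.22 (SPINT2) to 24.9 (SLPI) over the 3 inhibitors.

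Levels of different genes were compared as TPM, which are counts divided by exon length and scaled to the same total in each library. With the KDM4A plasmid the order was SPINT2 (104 ± 6.93 TPM), KLK6 (97.8 ± 1.87), ST14 (80.3 ± 5.72), SLPI (74.3 ± 3.58), KLK10 (43.1 ± 1.56), SPINT1 (41.0 ± 1.78), PRSS8 (16.3 ± 1.18), KLK7 (10.6 ± 0.764), KLK11 (1.03 ± 0.423) and KLK5 (0.387 ± 0.115; SD, n = 3). The libraries of SPINT2 and KLK6, of ST14 and SLPI, and of KLK10 and SPINT1 overlapped in range, although the first of each pair was above the second in 3 of 3 libraries. With the control plasmid SPINT2 was highest (14.3 ± 1.09 TPM), ahead of ST14 (5.69 ± 0.800), SLPI (3.77 ± 0.218), KLK6 (2.61 ± 0.539), SPINT1 (2.40 ± 0.245), PRSS8 (1.91 ± 0.254), KLK10 (1.32 ± 0.162) and KLK7 (1.12 ± 0.312). There KLK6 overlapped SPINT1 and SPINT1 overlapped PRSS8, with the first above the second in 3 of 3 libraries, and KLK10 overlapped KLK7, with KLK10 above in 2 of 3. KLK11 averaged 0.0630 TPM and KLK5 was at 0 counts in those controls.

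The makeup of the set differed between the groups. SPINT2 made up 22.2% of the members' summed TPM with the KDM4A plasmid and 43.2% with the control plasmid, averaged over libraries. KLK6 made up 20.9% and 7.84%, and KLK10 9.20% and 3.98%. ST14 held 17.1% in both groups. Among all tested genes, ranked by mean TPM, KLK6 stood at percentile 91.2 with the KDM4A plasmid and 24.02 with the control plasmid, and SPINT2 at 91.8 and 53.2.

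The balance of proteases to inhibitors was compared within each library, on the TPM scale. The 7 proteases summed to 237, 255 and 256 TPM with the KDM4A plasmid and to 13.1, 14.2 and 10.8 TPM with the control plasmid. The 3 inhibitors summed to 206, 225 and 228 TPM and to 21.6, 20.8 and 19.02 TPM in the same groups. The ratio of protease to inhibitor TPM was therefore 1.15, 1.13 and 1.13 in the KDM4A plasmid libraries and 0.608, 0.680 and 0.570 in the control libraries. The groups did not overlap, and the mean ratio was 1.84 times as high with the KDM4A plasmid. With ST14 and PRSS8 alone as proteases the ratio averaged 0.440 ± 0.00995 with the KDM4A plasmid and 0.371 ± 0.0277 with the control plasmid (SD, n = 3 each).

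Single protease and inhibitor pairs did not all move the same way. ST14 over SPINT1 was 1.86, 2.09 and 1.93 in the KDM4A plasmid libraries and 2.48, 2.41 and 2.22 in the control libraries, so this ratio was lower with the KDM4A plasmid. ST14 over SPINT2 was 0.765, 0.775 and 0.769 with the KDM4A plasmid and 0.384, 0.440 and 0.368 with the control plasmid, so this ratio was higher. PRSS8 over SPINT2 was 0.155, 0.156 and 0.157 with the KDM4A plasmid and 0.143, 0.128 and 0.128 with the control plasmid, and the 5 kallikreins over SLPI averaged 2.06 ± 0.0504 and 1.36 ± 0.253. The groups did not overlap in any of these ratios. The ratios concern RNA and say nothing of protein or activity.

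**Figure D2:**
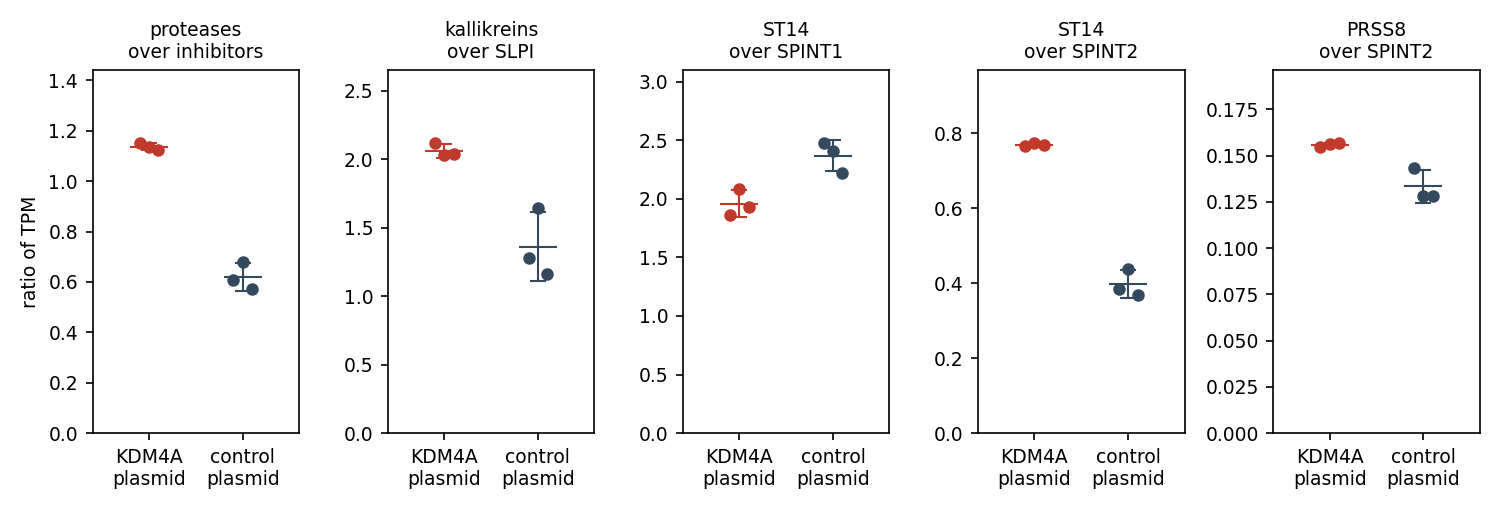
Ratios of TPM within each library: all 7 proteases over the 3 inhibitors, the 5 kallikreins over SLPI, ST14 over SPINT1, ST14 over SPINT2, and PRSS8 over SPINT2. Points are libraries (KDM4A plasmid left, control plasmid right), horizontal marks are means and bars are SD; every axis starts at 0. ST14 over SPINT1 is lower with the KDM4A plasmid (1.96 against 2.37 on average), and the other ratios are higher.

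The 5 member kallikreins lie in the kallikrein cluster on chromosome 19 (50819146 to 51084245, GRCh38.p13), a stretch of 265.1 kb with 16 KLK rows in the deposited table. KLK6 (ENSG00000167755, 50958631 to 50969673) and KLK7 (ENSG00000169035, 50976468 to 50984099) were followed by KLK8 with 5 counts over the KDM4A plasmid libraries and 6 over the control libraries, and by KLK9 with 0 in both. KLK10 (ENSG00000129451, 51012739 to 51020175) and KLK11 (ENSG00000167757, 51022216 to 51028039) came next, and then KLK12 with 1 count in each group. KLK8 and KLK9 overlap by 204 bases on the same strand. Another protein-coding gene on that strand, ENSG00000269741, overlaps KLK8 by 6694 bases and KLK9 by 7074 bases, and had 0 counts in both groups. Reads shared by such genes can be lost in counting, so the low counts of KLK8 and KLK9 need not mean low RNA. KLK6 and KLK10 made up 88.0% to 88.3% of all KLK counts in the KDM4A plasmid libraries and 56.6% to 67.5% in the control libraries.

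Of the 10 other kallikrein genes, 2 passed the filter and both rose, where 40.0% of all tested genes rose. Both had 4 to 8 counts in each control library and passed the filter through the KDM4A plasmid libraries. A fall could thus not have been called for them. KLK1, tissue kallikrein, which releases kinins, lies at the far end of the cluster from KLK14 and stood at 4.94, 5.88 and 5.36 CPM with the KDM4A plasmid and at 0.211, 0.247 and 0.350 CPM with the control plasmid (log2 fold change 4.28, SE 0.23, adjusted p = 1.3e-11). KLK14, a trypsin-like kallikrein of skin, rose by 1.61 (SE 0.31, adjusted p = 1.2e-04), at 0.991 ± 0.0641 and 0.321 ± 0.0275 CPM. KLK13 had 34 and 7 counts over the libraries of the KDM4A and control plasmid groups and was not tested here. It passed as higher in each of the 5 alternatives that tested it (adjusted p of 4.8e-05 to 0.0032). These were the run without a filter and runs with a library left out. In the runs with a library left out KLK13 passed the filter through the KDM4A plasmid libraries, so a fall could not have been called. The other KLK rows had at most 5 and 6 counts. Outside the cluster the nearest 5 tested protein-coding genes on each side were called in both directions, with 6 higher, 1 lower and 3 that did not pass, and log2 fold changes from -0.60 (ZNF175) to 2.18 (VSIG10L).

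**Figure D3:**
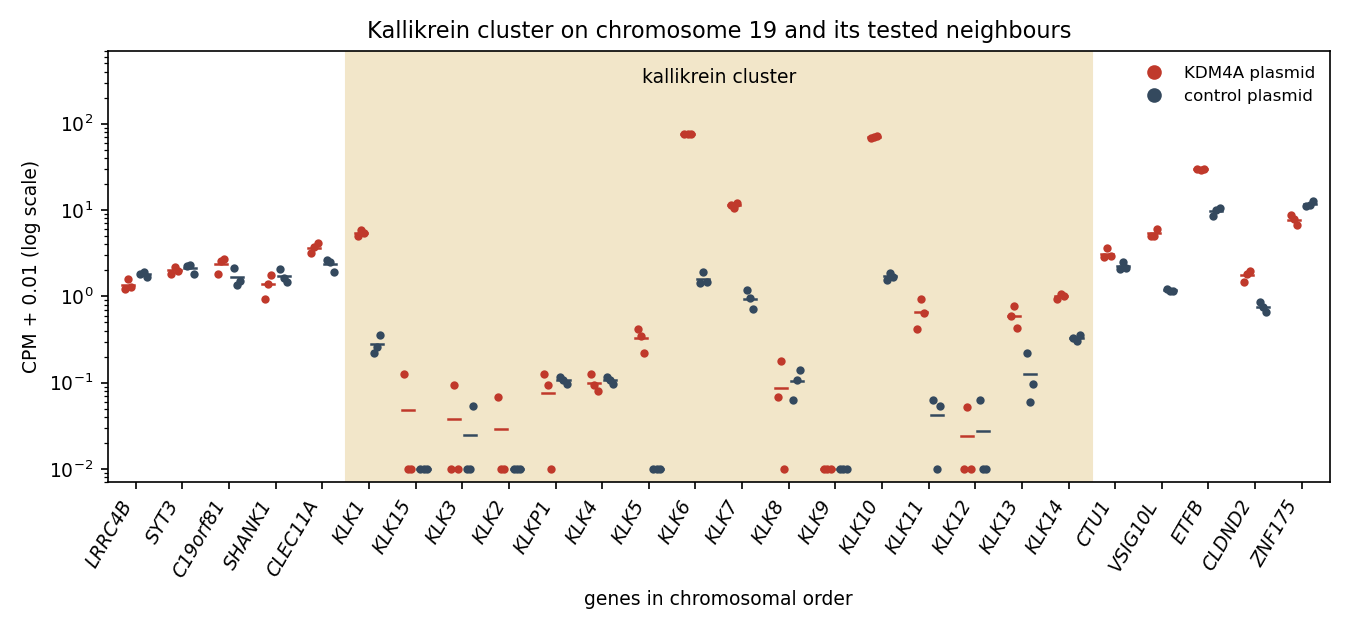
Levels of the 16 KLK rows (shaded) and of the nearest 5 tested protein-coding genes on each side, in chromosomal order but not to scale, in CPM plus 0.01 on a log axis. Points are libraries (KDM4A plasmid in red, left; control plasmid in dark blue, right) and bars are means. KLK6 and KLK10 reach 76.0 and 70.0 CPM with the KDM4A plasmid, while KLK8 between them stays at or under 0.169 CPM in every library and KLK9 has 0 counts. Another gene overlaps KLK8 and KLK9 on their strand, and reads shared with it can be lost in counting.

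Some members share reads or space with other annotated genes. SPINT1 overlaps SPINT1-AS1, a lncRNA gene on the opposite strand, by 370 bases. SPINT1-AS1 had 312 counts over the KDM4A plasmid libraries and 12 over the control libraries (log2 fold change 4.83, SE 0.24, adjusted p = 5.2e-12). It was chosen for this overlap and its values were seen. SPINT2 overlaps PPP1R14A on the opposite strand, which had 33 and 41 counts. The lncRNA gene ENSG00000286037, also opposite to SPINT2, had 96 and 8 counts over the same groups. No strand setting of the counting is stated, so reads in these overlaps cannot be assigned to a strand. On its own strand SPINT2 overlaps the protein-coding gene ENSG00000267748 by 3465 bases. That gene had 0 counts in both groups, and reads shared with it can be lost in counting.

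Of 22 other membrane-anchored serine protease genes, 14 had too few counts for a test. Of the 8 tested, 5 rose, 1 fell and 2 did not pass, where 40.0% of all tested genes rose and 38.6% fell. The median log2 fold change was 2.30 beside 0.03 for all tested genes. Of those that rose, TMPRSS2, TMPRSS3, TMPRSS13 and PRSS22 would not have passed the filter on the control libraries alone. They passed it through the KDM4A plasmid libraries, so the filter favoured a rise in their calls and in the median. TMPRSS3, a transmembrane protease whose loss causes deafness, stood at 3.60 ± 0.339 CPM with the KDM4A plasmid and 0.129 ± 0.0299 CPM with the control plasmid (log2 fold change 4.75, SE 0.29, adjusted p = 6.1e-11). PRSS22, a tryptase of airway epithelium, rose by 3.66 (SE 0.26, adjusted p = 5.7e-10). TMPRSS2, which activates viral surface proteins at the cell membrane, rose by 3.27 (SE 0.20) and TMPRSS4 by 2.94 (SE 0.16); both were chosen after their values were seen. TMPRSS5 fell, at 1.10, 0.804 and 1.06 CPM with the KDM4A plasmid and 2.16, 1.33 and 1.45 CPM with the control plasmid (log2 fold change -0.75, SE 0.26, adjusted p = 0.013). That call was lost with DESeq2 (adjusted p = 0.057), without KDM4A plasmid replicate 2 (0.084) and without control plasmid replicate 1 (0.081).

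The other inhibitor families differed from each other. Of 23 other genes with Kunitz or WAP domains, 6 were tested, with a median log2 fold change of -0.06. Of these, 2 were higher, 3 were lower and 1 did not pass, where 40.0% of all tested genes rose and 38.6% fell. The 2 higher ones, PI3 and AMBP, had 5, 4 and 8 and 1, 0 and 1 counts in the control libraries. Both passed the filter through the KDM4A plasmid libraries, so a fall could not have been called for PI3 or AMBP. APLP2, an APP relative chosen after its values were seen, is among the 3 lower ones (log2 fold change -0.13, adjusted p = 0.025). Its call was lost with the replicate block (adjusted p = 0.10), without KDM4A plasmid replicate 2 (0.080) and without KDM4A plasmid replicate 3 (0.13). PI3, the gene of elafin, an elastase inhibitor that lies near SLPI on chromosome 20, stood at 20.6, 17.6 and 18.1 CPM with the KDM4A plasmid and at 0.264, 0.197 and 0.350 CPM with the control plasmid (log2 fold change 6.06, SE 0.18, adjusted p = 4.9e-15). AMBP, the precursor gene of bikunin, was called higher on 57 and 2 counts over the groups, a ratio of 32.1 (95% exact binomial interval 8.50 to 272). TFPI2, an inhibitor of plasmin and other trypsin-like proteases, fell to 2.93 ± 0.232 CPM with the KDM4A plasmid, against 6.25 ± 0.486 CPM with the control plasmid (log2 fold change -1.10, SE 0.14, adjusted p = 8.5e-07). APP, the amyloid precursor gene, which carries a Kunitz domain in some isoforms, fell to 413 ± 11.9 CPM with the KDM4A plasmid, against 503 ± 16.4 CPM with the control plasmid (log2 fold change -0.28, SE 0.05, adjusted p = 1.1e-04).

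Of 10 Kazal-type inhibitor genes, 2 were tested and 0 passed by edgeR, by DESeq2 or by limma-voom, with 0 at an unadjusted p under 0.05. SPINK5, whose product inhibits KLK5, KLK7 and KLK14 in skin, stood at 0.872, 1.10 and 0.352 CPM with the KDM4A plasmid and at 0.686, 1.38 and 1.05 CPM with the control plasmid (log2 fold change -0.33, SE 0.34, adjusted p = 0.37). SPINK2 averaged 2.14 ± 0.479 CPM with the KDM4A plasmid and 1.41 ± 0.569 CPM with the control plasmid (log2 fold change 0.53, SE 0.26, adjusted p = 0.072). It passed as higher with the replicate block (adjusted p = 0.013), without a filter (0.042), without KDM4A plasmid replicate 2 (0.027) and without control plasmid replicate 3 (0.0042). The groups of both genes overlapped. SPINK4 did not pass the filter and had 9, 21 and 9 counts with the KDM4A plasmid and 1, 1 and 2 with the control plasmid, without overlap. In each of the 6 alternatives that tested it, SPINK4 passed as higher (adjusted p of 9.3e-08 to 1.9e-04). These were the run without a filter and runs with a library left out. In the runs with a library left out SPINK4 passed the filter through the KDM4A plasmid libraries, so a fall could not have been called. SPINK2, SPINK4 and SPINK5 were chosen after their values were seen.

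Serpins, which trap serine proteases by a conformational change, were tested for 15 of 34 genes. Of these, 12 were higher, 2 were lower and 1 did not pass, where 40.0% of all tested genes rose and 38.6% fell. The median log2 fold change was 2.63 beside 0.03 for all tested genes, unchanged with SERPINA4 (0 counts in controls) at its bound. SERPINA4, SERPINA5, SERPINB8 and SERPINF2 passed the filter through the KDM4A plasmid libraries, which favoured a rise. SERPINF2, the plasmin inhibitor alpha-2-antiplasmin, was called higher on 100 and 3 counts, a ratio of 37.6 (95% exact binomial interval 12.5 to 185). SERPINA5, protein C inhibitor, rose by 4.55 (SE 0.30, adjusted p = 2.0e-10). SERPINB5, known as maspin and without protease inhibition by the serpin mechanism, rose by 3.96 (SE 0.12) and was chosen after its values were seen. SERPINF1 fell to 17.4 ± 1.80 CPM with the KDM4A plasmid, against 51.1 ± 0.704 CPM with the control plasmid (log2 fold change -1.56, SE 0.07, adjusted p = 2.0e-12), and SERPING1, the C1 inhibitor, fell by 1.17 on that scale (SE 0.21, adjusted p = 5.9e-05).

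Among substrates and receptors of these proteases, 13 of 21 genes were tested. Of these, 9 rose and 4 fell, where 40.0% of all tested genes rose and 38.6% fell. The median log2 fold change was 1.70 beside 0.03 for all tested genes. EPCAM, an adhesion protein that matriptase cleaves and that is also among the colon markers above, rose by 4.14 (SE 0.07, adjusted p = 1.7e-18), and CLDN7, its claudin partner, by 4.09 (SE 0.09, adjusted p = 1.7e-16). MST1, the precursor of the MST1R ligand, which has near-identical copies whose reads the counting could split, fell to 1.35 ± 0.351 CPM with the KDM4A plasmid, against 3.39 ± 0.581 CPM with the control plasmid (adjusted p = 2.4e-05), whereas MST1R rose by 3.26 (SE 0.14, adjusted p = 8.3e-13). HGF, another precursor that matriptase activates, stood at 1.10, 1.23 and 1.27 CPM with the KDM4A plasmid and 1.69, 1.68 and 1.66 CPM with the control plasmid. Its log2 fold change was -0.48 (SE 0.21, adjusted p = 0.041), and that call was lost with DESeq2 (adjusted p = 0.18), with the replicate block (0.072), without a filter (0.10) and without any 1 of the 6 libraries (0.062 to 0.11). MET, its receptor gene, rose by 0.82 (SE 0.06, adjusted p = 3.4e-10). Of the protease-activated receptors, F2R fell (log2 fold change -0.90, SE 0.06, adjusted p = 4.3e-10) and F2RL1, which trypsin-like proteases activate, rose by 0.84 (SE 0.06, adjusted p = 2.8e-10). The urokinase gene PLAU, a matriptase substrate, stood at 16.6 ± 1.10 and 1.52 ± 0.188 CPM, and SCNN1A, a subunit of the sodium channel that prostasin activates, at 38.3 ± 0.480 and 3.21 ± 0.469 CPM with the KDM4A and control plasmids. MST1R, HGF, MET, F2RL1, PLAU and SCNN1A were chosen after their values were seen. SCNN1B and SCNN1G, the other channel subunits on the list, had 3 and 0 counts with the KDM4A plasmid and 1 and 0 with the control plasmid.

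Of 12 epithelial transcription and splicing regulators, 11 were tested. Of these, 9 were higher, 1 was lower and 1 did not pass, where 40.0% of all tested genes rose and 38.6% fell. The median log2 fold change was 2.75 beside 0.03 for all tested genes. ELF3, an epithelial ETS factor, rose by 4.17 (SE 0.11, adjusted p = 1.3e-15) and the zinc finger factor OVOL2 by 3.96 (SE 0.35, adjusted p = 1.3e-08). The grainyhead factors differed in direction, since GRHL1 fell (7.35 ± 1.45 CPM with the KDM4A plasmid and 11.3 ± 1.08 CPM with the control plasmid, log2 fold change -0.61, SE 0.12, adjusted p = 2.4e-04), while GRHL2 rose by 2.75 (SE 0.18) and GRHL3 by 2.66 (SE 0.23). The splicing regulator ESRP2 averaged 32.9 ± 1.54 CPM with the KDM4A plasmid and 33.1 ± 1.31 CPM with the control plasmid (log2 fold change -0.01, SE 0.07, adjusted p = 0.89). GRHL2, GRHL3 and ESRP2 were chosen after their values were seen.

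**Figure D4:**
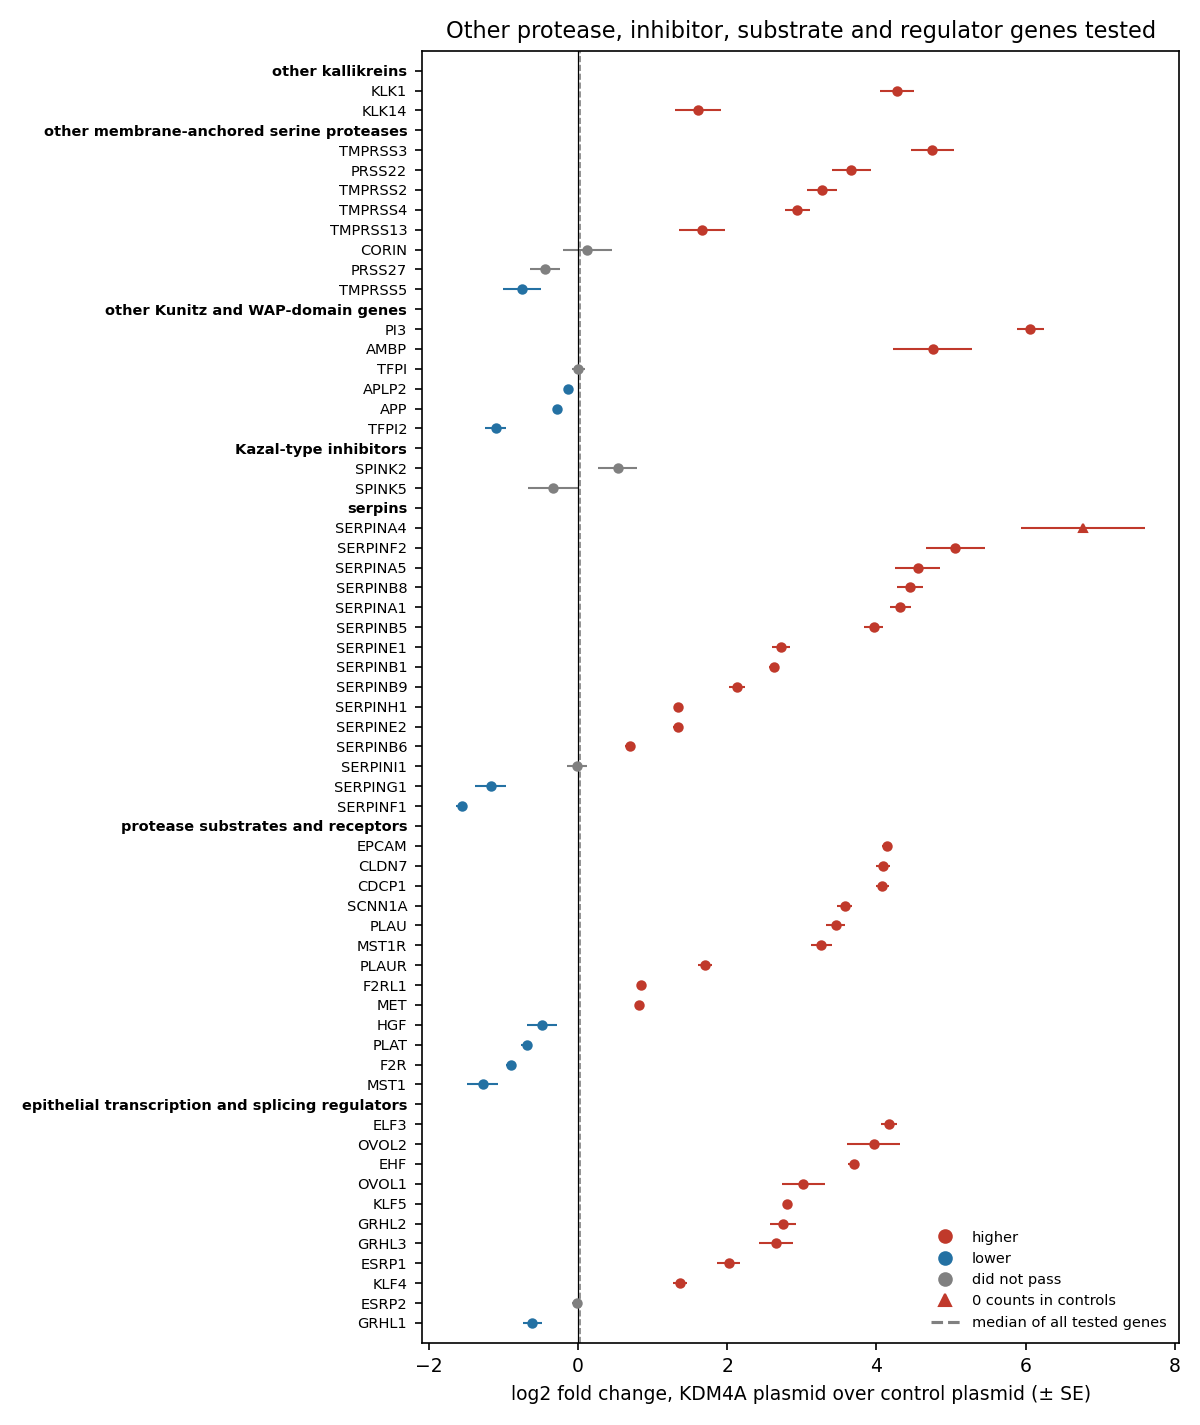
Log2 fold change (KDM4A plasmid over control plasmid) with SE of every tested gene on the 7 lists of other proteases, inhibitors, substrates and regulators. Red marks genes called higher, blue genes called lower and grey genes that did not pass at an adjusted p of 0.05 (edgeR); the triangle is SERPINA4, with 0 counts in controls, and the dashed line is the median of all tested genes, 0.03. PI3 lies at 6.06, SERPINF1 lies farthest left at -1.56, and the Kazal-type genes SPINK2 and SPINK5 lie at 0.53 and -0.33.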

How the data were processed

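The authors deposited whole-number read counts per gene for the 6 libraries, with symbols, exon lengths and GRCh38.p13 positions, per the file headers. The submitters' processing notes name HISAT2, HTSeq and the GRCh38 build, without versions or strand. Columns were matched to samples by name, with 0 unmatched. After edgeR's filterByExpr (minimum count 10), 17147 genes remained, which held 99.8% to 99.9% of each library. A gene could pass through the libraries of the group where it was high. The filter therefore favours large differences among low-count genes.

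Groups were compared with edgeR 4.0.16 in R 4.3.3 (TMM factors, robust glmQLFit, glmQLFTest). P-values were adjusted by Benjamini-Hochberg over all tested genes, and the threshold was 0.05. A positive log2 fold change is higher with the KDM4A plasmid, and its SE is the fold change over the square root of F. CPM use TMM-scaled library totals, and TPM are counts divided by the deposited exon length and scaled to an equal sum per library. Intervals cover counting error only, and floors cover only that of the control counts.

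The members and the gene lists were chosen with earlier results of these data known. Named genes were the members, KDM4A, the whole KLK family, neighbours of its cluster, IRS4, colon markers and, per list, up to 2 largest rises and 2 largest falls among called genes without overlap and with at least 1 CPM in the higher group. Other list genes, PRSS27 included, were chosen after their values were seen. Across genes, log2 CPM correlated at 0.993 to 0.995 within groups and 0.895 to 0.906 between them. A chi-square per degree of freedom, on plain library totals without TMM factors, was 1.48 to 10.5 between replicates. That value holds differences in library scaling as well as spread beyond sampling noise. Alternatives were a replicate block, DESeq2 1.42.0, limma-voom (limma 3.58.1), RLE factors, plain library size, no filter, a stricter filter (at least 10 counts and 1 CPM in at least 3 libraries), each library left out, and the protease to inhibitor ratio without exon length, SLPI or kallikreins.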

Additional observations from a re-analysis of the deposited data

How the results depend on the processing

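The log2 fold changes of the 8 tested members kept their sign under each of the 13 alternatives and moved by at most 0.20 (KLK7 without control plasmid replicate 3). The log2 of the protease to inhibitor ratio between the groups was 0.88, and 1.18 without SLPI among the inhibitors and 0.25 without kallikreins among the proteases. It was 0.84 without exon length and 0.82 to 0.95 with a library left out. The count of called kallikreins outside the members was 2. It was 1 with the stricter filter, which tests fewer genes, 3 without a filter and 2 to 3 with a library left out, the third gene being KLK13. Among Kazal-type inhibitors 0 were called, against 1 with the replicate block and 2 without a filter, and 1 to 2 with a library left out. Of all tested genes 13480 were called, against 12588 with DESeq2, 13242 with the replicate block, 12629 with the stricter filter, 15055 without a filter and 12959 to 13764 with a library left out. Deviations of same-numbered libraries correlated at -0.15 to 0.03 across genes, and those of other numbers at -0.10 to 0.18. No pairing by replicate number was thus seen, but 3 same-numbered pairs cannot exclude one. With the block HGF and APLP2 lost their calls, SPINK2 and PRSS27 gained one, and no other list gene named here changed its call. PRSS27, at an adjusted p of 0.051, passed as lower under 6 of the 13 alternatives. TMPRSS5 and APLP2 lost their calls under 3 each, and HGF under 9 of them. KLK5, KLK11 and the other genes under the filter rest on few counts, which limits the precision of their fold changes.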

Other observations

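Among the genes annotated opposite to the member kallikreins are 3 lncRNA genes. ENSG00000267879, which overlaps KLK6, KLK7, KLK8 and KLK9, had 14 counts over the KDM4A plasmid libraries and 0 over the control libraries. ENSG00000269495, which overlaps KLK5 and KLK6, had 22 and 1 counts over the same groups. ENSG00000268739, which overlaps KLK10, had 10 and 0 counts. They are listed by identifier only and were not tested.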
